A study of Mus musculus with 12 samples.

Results

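The genes described here are Hspb1, Cryab, Hspb6 and Hspb8, which encode small heat shock proteins, together with Bag3, a co-chaperone of that family, and Hsf1, its main transcriptional regulator. They were taken by name from a table of 40597 loci, and all 6 were found, each as a locus with a single gene name. Their selection drew on measured responses to dexamethasone in these same libraries, above all that of Hspb1. Their levels under dexamethasone and vehicle are therefore given as a description with no test, and only the differences between the sexes are tested for them. RNA came from neurospheres, free-floating spheres of neural stem and progenitor cells, cultured from fetal hypothalamus of the mouse strain C57Bl/6, taken on embryonic day 14.5. At passage 3 the spheres were exposed for 4 hours to 100 nM dexamethasone, a synthetic glucocorticoid, or to the same volume of ethanol, in male dexamethasone, female dexamethasone, male vehicle and female vehicle groups of 3 libraries each. No allele, transgene or other agent is named for any group. The labels call the 3 libraries of a group biological replicates without saying what separates them, so p-values measure the spread between these libraries.

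Small heat shock proteins share the alpha-crystallin domain and bind unfolding proteins without using ATP, holding them for refolding by Hsp70 chaperones or for degradation. Hspb1 and Cryab, the gene of alpha B-crystallin, encode proteins that form large oligomers, bind actin and intermediate filaments. In the brain they are known chiefly from astrocytes and, for Cryab, from oligodendrocytes. Hspb8 works with Bag3, which bridges it to Hsp70 and steers damaged proteins into autophagy. In stressed cells Hsf1 trimerizes and binds heat shock elements, inverted repeats of GAA, in front of many of these genes. Dexamethasone acts through the glucocorticoid receptor, a different transcription factor, which the Hsp90 chaperone system keeps ready to bind hormone.

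Values are FPKM, fragments scaled by transcript length and library size, so levels can be set beside each other between genes. Differences are on the scale of log2(FPKM + 1), which understates the change of genes with low values. Tests were run with limma on the 14931 loci that averaged 1 FPKM or more, and a gene was called at an adjusted p under 0.05. Loci above 1 FPKM numbered 13755 to 14826 per library. The share of FPKM at unnamed loci was 75.0% in male vehicle library 3 and 53.1% in male dexamethasone library 2, against 11.6% to 38.6% in the others. Xist, the RNA that coats the inactive X chromosome, measured 14.1 FPKM in male dexamethasone library 2 and 3.04 FPKM in male vehicle library 2, against at most 0.0466 FPKM in the other male libraries and at least 136 FPKM in the female ones. The Y-linked gene Ddx3y was at 16.6 to 22.6 FPKM in all male libraries, these included, and at most 0.0397 FPKM in female ones. Results that rest on the male libraries numbered 2 are therefore also given without them.

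Averaged over the 12 libraries of both treatments, Hsf1 had the highest level of the 6 genes, 15.0 FPKM, followed by Cryab at 10.7, Hspb1 at 5.20, Hspb6 at 3.50, Hspb8 at 2.30 and Bag3 at 0.761 FPKM. Library by library, Hspb8 was above Bag3 in 12 of 12 and Hspb6 above Hspb8 in 11 of 12. Hsf1 was above Cryab in 10 of 12 libraries, and Cryab was above Hspb1 in as many, whereas Hspb1 was above Hspb6 in 6 of 12. The place of Hspb1 holds for the average over treatments only. In vehicle libraries it was below Hsf1, Cryab, Hspb6 and Hspb8 in 6 of 6 and below Bag3 in 4 of 6, and with dexamethasone its mean was the third highest. Cryab ranked near the middle of the tested loci, 49.6% of which had a higher mean. Of the 6 genes, 5 met the minimum of 1 FPKM. Bag3 did not and was fitted only without the minimum, and Hspb1 met it only through its dexamethasone libraries. The plot of all 6 genes by group shows how far Hspb1 stands apart in this: with dexamethasone its mean, 10.1 FPKM, was close to that of Cryab, and with vehicle its values were below those of Cryab in every library.

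**Figure D1:**
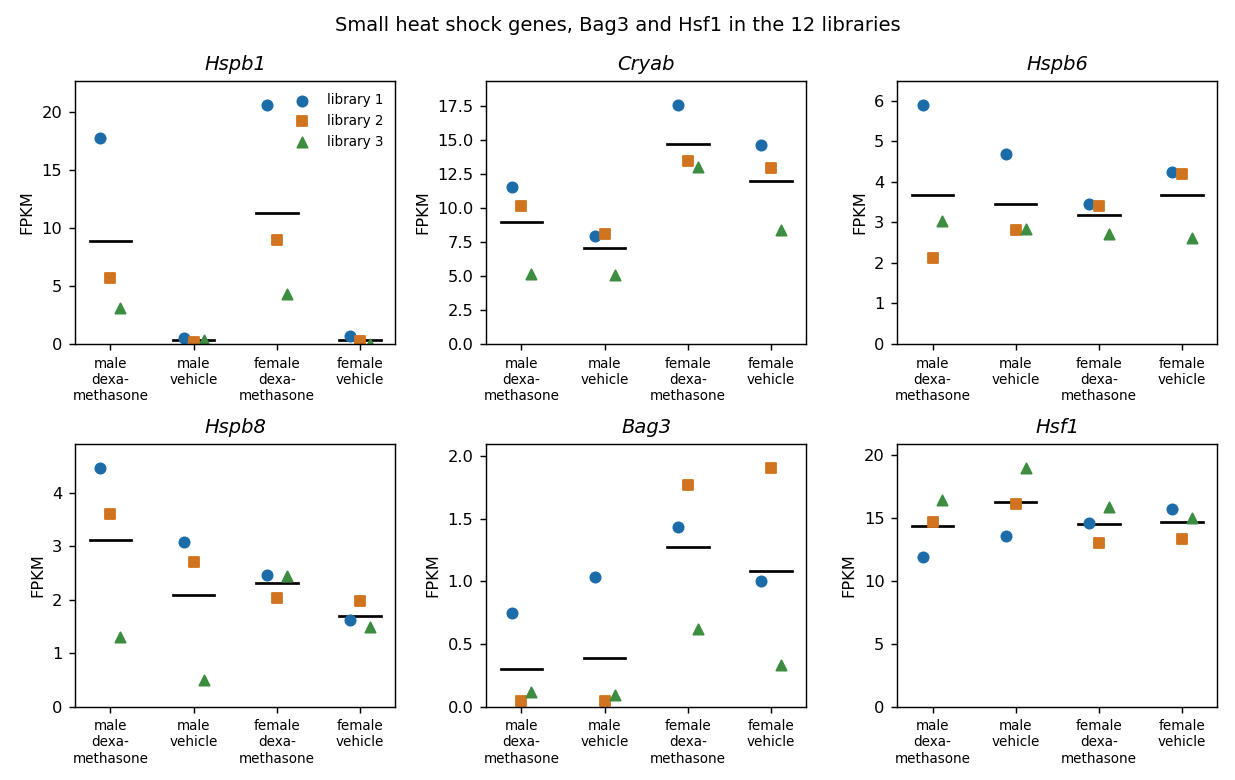
FPKM of the 6 genes (vertical axes, each from 0) in male dexamethasone, male vehicle, female dexamethasone and female vehicle libraries; points are libraries, marked by number, and bars are group means of 3. Hspb1 is near 0 in every vehicle library and between 3.13 and 20.6 FPKM in every dexamethasone library, whereas for the other 5 genes the dexamethasone and vehicle libraries of both sexes together overlap. The female vehicle bar of Hspb1 includes a library listed at 0.

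Hspb1, the gene of the heat shock protein that caps actin filaments, had values under 1 FPKM in every vehicle library and several FPKM in every dexamethasone library. It stood at 17.8, 5.72 and 3.13 FPKM in male dexamethasone libraries 1, 2 and 3, against 0.516, 0.146 and 0.317 FPKM in male vehicle libraries. In females it stood at 20.6, 8.97 and 4.28 FPKM in dexamethasone libraries 1, 2 and 3, against 0.729, 0.230 and 0 FPKM in vehicle libraries. Every dexamethasone library was above every vehicle library, and the lowest dexamethasone value, 3.13 FPKM, was above the highest vehicle value, 0.729 FPKM. Such a separation was found at 1.41% of tested loci, and nothing is read from it, since Hspb1 was chosen on this contrast. Library 1 was highest and library 3 lowest among the dexamethasone libraries of each sex. In bulk RNA, more cells with a transcript and more of it per cell cannot be told apart.

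The mean of Hspb1 was 8.87 ± 7.80 FPKM in male dexamethasone libraries and 0.326 ± 0.185 FPKM in male vehicle libraries (SD, n = 3 each), a ratio of 27.2. This ratio rests on single libraries, being 13.6 without male dexamethasone library 1 and 38.3 without male vehicle library 1. In females the dexamethasone mean was 11.3 ± 8.41 FPKM (SD, n = 3). No mean is set beside it, because female vehicle library 3 is listed at 0 and an exact 0 in such a table can be a failed estimate. Between same-numbered libraries with a vehicle value above 0, the level with dexamethasone was 9.88 to 39.1 times that with vehicle. The averaged difference over both sexes was 2.82 on the log2 scale (SE 0.42, 95% interval 1.89 to 3.74). The listed 0 was kept in this difference and in those that follow, except where its library was left out. With a smaller constant added before the logarithm the same libraries gave a larger difference, 3.44 with 0.5 and 4.54 with 0.1, since the vehicle values lie well under 1 FPKM. Leaving out any 1 library gave 2.51 to 3.06, and leaving out both male libraries numbered 2 gave 2.83.

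The Hspb1 gene lies on chromosome 5 (chr5:135887919-135889563, plus strand, GENCODE M21 on GRCm38), and the table gives its locus the same ends. The 250 bases in front of its RefSeq start site (chr5:135887669-135887918, plus strand, GRCm38.p6) are shown because they hold a pair of matches to GAANNTTC, a form of the heat shock element, in capitals.
Hspb1 upstream: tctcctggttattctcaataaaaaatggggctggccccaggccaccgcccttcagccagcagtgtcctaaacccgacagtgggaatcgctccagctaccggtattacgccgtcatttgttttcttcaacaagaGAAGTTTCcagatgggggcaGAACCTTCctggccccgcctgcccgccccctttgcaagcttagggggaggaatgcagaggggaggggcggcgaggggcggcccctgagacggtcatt
The first match, GAAGTTTC, starts at position -117 from the start site and the second, GAACCTTC, at position -97.

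Of the 6 genes, 4 had RefSeq promoters of 300 bases, from 250 bases before to 50 after a start site, and these 4 had 5 promoters in all. Cryab and Hsf1 were not examined. GAANNTTC, which reads the same on both strands, was in a promoter of all 4 genes, against 7.86% of 32851 promoters and 5.84% of the 11559 promoters of tested genes. The 4 genes held the same 8 letters, GAAGTTTC, which were in 1.21% of all promoters. This was noticed after the sequences had been read. They are set out here, 30 bases each, with those letters in capitals.
Hspb1: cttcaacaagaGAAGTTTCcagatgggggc
Hspb6: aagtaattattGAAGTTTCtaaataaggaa
Hspb8: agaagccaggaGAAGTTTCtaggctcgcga
Bag3: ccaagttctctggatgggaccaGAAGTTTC
The stretches are chr5:135887791-135887820 on the plus strand for Hspb1, chr7:30553170-30553199 on the plus strand for Hspb6, chr5:116422844-116422873 on the minus strand for Hspb8 and chr7:128523603-128523632 on the plus strand for Bag3 (GRCm38.p6). Counting the start site as base 1, the match began at base 3 in Hspb8 and base 43 in Bag3, inside the transcribed region. In Hspb6 it began at position -120 of 1 of its promoters. That match, chr7:30553181-30553188, lies inside the gene as GENCODE M21 places it, chr7:30552178-30555443.

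The other order of the repeats, TTCNNGAA, was in none of the 5 promoters, against 8.52% of all promoters. The 3-unit form, GAANNTTC followed by NNGAA, is in 0.603% of all promoters. It contains TTCNNGAA, so its absence from the 5 follows and is no separate result. A full glucocorticoid response element, AGAACA and TGTTCT with 3 bases between them, was in none of the 5, but only 0.00913% of promoters hold it. The shorter TGTTCT was found on either strand in 19% of promoters and, among these genes, in that of Hspb8, at position -128. A match is a run of letters and not a measured binding site. Among the 17 inducible chaperone genes with a promoter, 8 held GAANNTTC, as did 1 of 13 glucocorticoid-induced genes.

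Cryab, the gene of alpha B-crystallin, differed little between the treatments and had its higher values in female spheres. It stood at 11.5, 10.2 and 5.16 FPKM in male dexamethasone libraries, against 7.94, 8.09 and 5.08 FPKM in male vehicle libraries. In female libraries it stood at 17.6, 13.4 and 13.0 FPKM with dexamethasone, against 14.6, 12.9 and 8.41 FPKM with vehicle. The treatments overlapped in each sex, and each dexamethasone library was above the vehicle library of the same number, by 1.02 to 1.55 times. Means were 11.8 ± 4.11 FPKM with dexamethasone and 9.51 ± 3.56 FPKM with vehicle (SD, n = 6 each), with an averaged difference of 0.28 (SE 0.21, 95% interval -0.18 to 0.74). It was 0.17 without female vehicle library 3 and 0.44 without male dexamethasone library 3. A dexamethasone library was above its same-numbered vehicle library in 6 of 6 cases at 9.83% of tested loci.

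The table places Cryab on chromosome 9 (chr9:50752758-50756633), and GENCODE M21 gives chr9:50751325-50756636 on the plus strand. Its head-to-head neighbour Hspb2, another small heat shock gene (chr9:50751078-50752354, minus strand), measured 0 to 0.320 FPKM, so the neighbouring transcripts were at very different levels. Hspb2 overlaps the longer GENCODE model of Cryab, and whether counting used strand is not stated in the sources used here.

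Hspb8, whose protein forms a complex with Bag3, had low values that leaned the same way. It stood at 4.47, 3.60 and 1.30 FPKM in male dexamethasone libraries, against 3.07, 2.71 and 0.495 FPKM in male vehicle libraries. Female dexamethasone libraries had 2.46, 2.04 and 2.43 FPKM, against 1.61, 1.97 and 1.48 FPKM in female vehicle libraries. In females the lowest dexamethasone value was above the highest vehicle value, whereas in males the groups overlapped. How many loci separate in this way within 1 sex was not counted, so nothing is read from it. All 6 dexamethasone libraries were above their same-numbered vehicle libraries, by 1.03 to 2.63 times, as was the case at 9.83% of tested loci. The averaged difference was 0.38 (SE 0.28). It was 0.15 without male vehicle library 3, which holds the lowest value. The gene lies at chr5:116408491-116422864 on the minus strand.

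Hspb6, best known from muscle, did not separate by treatment. It had 5.89, 2.11 and 3.04 FPKM in male dexamethasone libraries, against 4.69, 2.81 and 2.83 FPKM in male vehicle libraries. In females it had 3.45, 3.41 and 2.71 FPKM with dexamethasone, against 4.23, 4.18 and 2.62 FPKM with vehicle. The dexamethasone library was the higher of a same-numbered couple in 3 of 6 cases, and the averaged difference was -0.06 (SE 0.20). The table gives Hspb6 the same locus, chr7:30539134-30559838, as Lin37 and BC053749, which lie on the opposite strand. GENCODE M21 places Hspb6 at chr7:30552178-30555443 on the plus strand, and it touches both, so its values are uncertain.

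Bag3, which joins small heat shock proteins to Hsp70, had at most 1.91 FPKM in any library. Male dexamethasone libraries had 0.747, 0.0424 and 0.115 FPKM, against 1.03, 0.0428 and 0.0929 FPKM in male vehicle libraries. Female dexamethasone libraries had 1.44, 1.77 and 0.617 FPKM, against 1.00, 1.91 and 0.334 FPKM in female vehicle libraries. The treatments overlapped in both sexes, and in the fit without a minimum, over 27636 loci, the averaged difference was 0.05 (SE 0.26). Bag3 lies at chr7:128523616-128546981 on the plus strand.

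Hsf1, the regulator, was the steadiest of the genes. It had 11.9, 14.7 and 16.5 FPKM in male dexamethasone libraries, against 13.6, 16.1 and 19.0 FPKM in male vehicle libraries. Female dexamethasone libraries had 14.7, 13.0 and 15.9 FPKM, against 15.7, 13.3 and 15.0 FPKM in female vehicle libraries. Treatments overlapped, the dexamethasone library was the lower in 5 of 6 same-numbered couples, and the averaged difference was -0.09 (SE 0.10). Hsf1 lies at chr15:76477422-76501913 on the plus strand. RNA level says nothing of the activation of Hsf1, which is controlled on the protein.

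**Figure D2:**
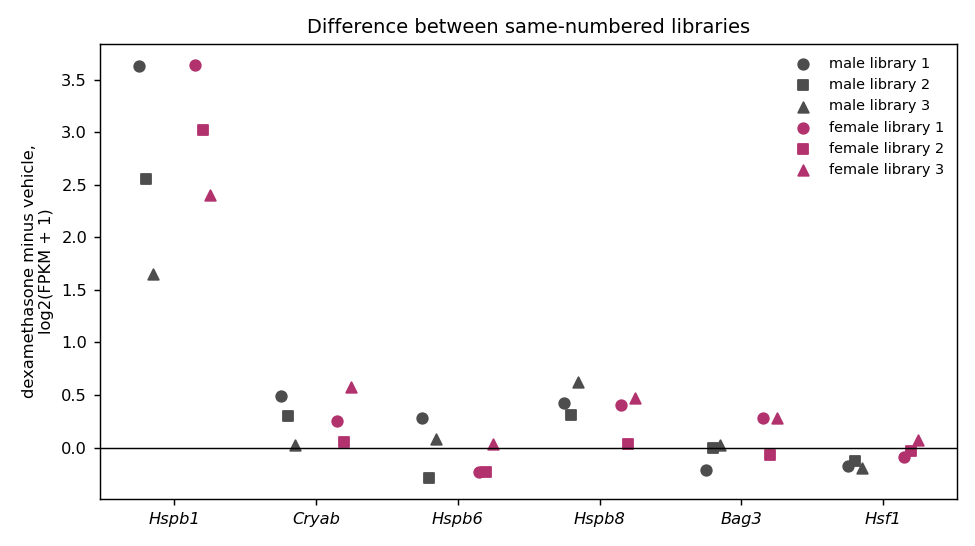
Difference between the dexamethasone and the vehicle library of the same sex and number, on the log2(FPKM + 1) scale, for each of the 6 genes; points are libraries of male and female spheres, with the shape giving the number. Hspb1 lies between 1.65 and 3.64 in all 6 couples, and the highest couple of the other genes is at 0.62.

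The question whether males and females responded differently was addressed by the interaction, the female effect minus the male effect, which played no part in choosing the genes. None of the 5 tested genes was called by limma, against 0.0335% of all tested loci. None had an unadjusted p under 0.05 either, as 1.47% of loci did. For Hspb1 the interaction was 0.41 (SE 0.83, 95% interval -1.44 to 2.27, limma adjusted p = 1.00), an interval wide enough to hold a much larger or a reversed sex difference. For Cryab it was 0.02 (SE 0.41, 95% interval -0.90 to 0.95, limma adjusted p = 1.00). Values for Hspb6, Hspb8 and Hsf1 were -0.16, -0.15 and 0.15. A sex difference in response was therefore not detectable at this spread.

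The level in female against male spheres, averaged over treatments, was the other independent comparison. Cryab was at 13.3 ± 2.97 FPKM in female libraries and 7.99 ± 2.60 FPKM in male libraries (SD, n = 6 each), and the highest male library, at 11.5 FPKM, was above the lowest female library, at 8.41 FPKM. The difference was 0.70 (SE 0.21, 95% interval 0.23 to 1.16), with an unadjusted p of 0.00736 by limma over 12 libraries. It did not pass adjustment over all loci (limma adjusted p = 0.593, and 0.0900 to 0.916 under the alternatives). An unadjusted p under 0.05 was found at 7.68% of tested loci, and 0.107% were called. Without the male libraries numbered 2 the difference was 0.80 (limma adjusted p = 0.819).

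Bag3, fitted without the minimum, had a female minus male difference of 0.70 (SE 0.26, limma adjusted p = 0.762), at 1.18 ± 0.633 FPKM in female libraries and 0.345 ± 0.432 FPKM in male libraries (SD, n = 6 each). Hspb1, Hspb6, Hspb8 and Hsf1 had differences of 0.17, -0.002, -0.15 and -0.05, with limma adjusted p of 0.887 to 1.00.

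Glial markers leaned the same way as the sex difference of Cryab, and so did some other lists. All 10 astrocytic markers had a higher mean log2 value in female than in male libraries, with a median of 0.35, and none was called by limma (1 had an unadjusted p under 0.05). Of the 9 oligodendrocyte lineage markers tested, 7 were higher in female libraries, with a median of 0.84, and again none was called (3 with an unadjusted p under 0.05). Over all tested loci the median was 0.038, and 7.68% had an unadjusted p under 0.05. How many of all loci were higher in female libraries was not counted. Of 10 neural stem cell markers 7 were higher in female libraries and 3 lower, with a median of 0.16. Of 15 glucocorticoid-induced genes 11 were higher and 4 lower (median 0.09), and of 19 inducible chaperones 6 were higher and 13 lower (median -0.05). The summed level of the oligodendrocyte list was 399 to 571 FPKM in female libraries and 379 to 507 FPKM in male libraries, and that of the astrocytic list was 864 to 1509 FPKM in female libraries and 741 to 1721 FPKM in male libraries. The part of glial cells in the Cryab difference was not tested.

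The genes around these proteins were read from lists, shown in the plot of averaged effects by list, and for genes outside the chosen 6 the averaged effect is tested. Among 7 genes listed as other small heat shock genes, Hspb11 alone reached 1 FPKM. A place in this list does not show that a protein holds the alpha-crystallin domain, so Hspb11 is not read as standing for the family. It averaged 29.5 FPKM with dexamethasone and 28.4 FPKM with vehicle, a difference of 0.06 (SE 0.17, limma adjusted p = 0.907). Hspb3 and Hspb9 lay between 0.112 and 0.877 FPKM, Hspb7 was at most 0.117 FPKM, and Cryaa, the lens partner of Cryab, was listed at 0 in all 12 libraries.

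**Figure D3:**
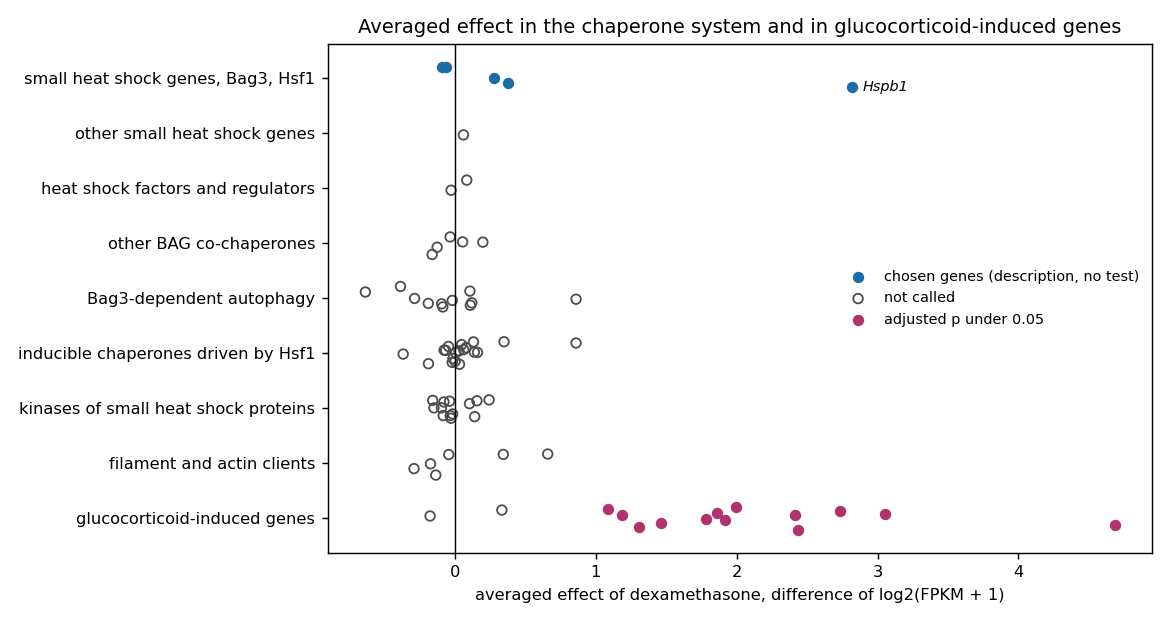
Averaged effect of dexamethasone, as a difference of log2(FPKM + 1), for each tested gene of 9 lists; filled blue points are the chosen genes, given with no test, other filled points passed an adjusted p under 0.05 and open points did not. Among the genes outside the top row, those that passed all lie in the bottom row of glucocorticoid-induced genes.

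Of the heat shock transcription factors and their binding partners 2 were tested, and neither was called by limma. As 1.53% of all tested loci were called, so short a list says little. Hsf2 averaged 19.1 FPKM with dexamethasone and 19.5 FPKM with vehicle, and Hsbp1, a binding protein that restrains Hsf1, averaged 260 FPKM with dexamethasone and 246 FPKM with vehicle, with differences of -0.03 and 0.08. The 4 other listed genes were under 1 FPKM.

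Of 21 inducible chaperones and ubiquitin genes that Hsf1 is known to drive, 19 were tested and none was called by limma, in a contrast where 1.53% of loci were called. Their median difference was 0.03, beside -0.01 over all tested loci, and 2 of them, Dnajb4 and Ahsa1, had an unadjusted p under 0.05. Of all tested loci, 13.6% had an unadjusted p under 0.05 in the averaged effect. Hspa1a and Hspa1b, the stress-inducible Hsp70 genes, stayed under 1 FPKM in every library: 0.151 to 0.347 FPKM with dexamethasone and 0.0883 to 0.599 FPKM with vehicle for Hspa1a. These near-identical copies share reads, so the split between them is uncertain.

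Hsp90ab1, a chaperone of the glucocorticoid receptor, was at 1195 FPKM with dexamethasone and 1259 FPKM with vehicle (difference -0.08, SE 0.07, limma adjusted p = 0.654). Hspa8, the constitutive Hsp70, was joined with small nucleolar RNA genes in 1 locus, whose value ran from 2032 to 10052 FPKM with dexamethasone and from 1722 to 4373 FPKM with vehicle (difference 0.86, SE 0.45, limma adjusted p = 0.428). Dnajb4, a co-chaperone of Hsp70, is named here because of its values. It had 24.3, 18.9 and 16.8 FPKM in male dexamethasone libraries, against 16.3, 13.1 and 14.3 FPKM in male vehicle libraries. In females it had 20.6, 23.8 and 17.3 FPKM with dexamethasone, against 16.5, 19.7 and 14.2 FPKM with vehicle. Each dexamethasone library exceeded its same-numbered vehicle library, as was the case at 9.83% of tested loci. The difference of 0.35 (SE 0.12) had a limma adjusted p of 0.247.

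The partners of Bag3 showed no call either. All 5 other BAG genes were tested, with differences of -0.16 for Bag2, -0.13 for Bag6, -0.03 for Bag4, 0.05 for Bag1 and 0.20 for Bag5 (limma adjusted p = 0.244 for Bag5, the only one with an unadjusted p under 0.05). Of 12 genes of Bag3-dependent autophagy 11 were tested and none was called by limma, with a median of -0.09, and 2 of them, Ywhag and Tsc1, had an unadjusted p under 0.05. The share of all tested loci with such a p was 13.6%. Stub1, the ubiquitin ligase that acts with Bag3, shares a locus with a microRNA gene and was too variable to read (difference -0.64, SE 1.09). Synpo2, which binds Bag3, was under the minimum.

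Kinases that phosphorylate Hspb1 and its relatives were tested for 13 of 15 genes, and none was called by limma (median -0.03). Mapkapk2, the main kinase of Hspb1, averaged 38.3 FPKM with dexamethasone and 34.6 FPKM with vehicle (difference 0.14, SE 0.05, limma adjusted p = 0.290). It was 1 of 2 in the list, with Map2k6, to have an unadjusted p under 0.05, as 13.6% of tested loci did. The catalytic subunits Prkaca and Prkacb had differences of -0.04 and -0.03. Of 10 filament and actin genes bound by small heat shock proteins, 6 were tested and none was called, nor had any an unadjusted p under 0.05. Actb differed by -0.04, Vim, which encodes vimentin, by -0.14 and Gfap, the astrocytic filament, by 0.66 with an SE of 1.00.

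Of 15 known glucocorticoid-induced genes 13 rose by limma's test, none fell, and their median was 1.86. Over all tested loci 1.15% were called higher and 0.388% lower. The list was chosen with earlier results of these data known, so it is not independent evidence of its direction. Differences were 4.69 for Fam107a, 3.05 for Zbtb16, 2.73 for Hif3a, 2.43 for Tsc22d3, 2.42 for Fkbp5, 2.00 for Klf9 and 1.91 for Per1. They were 1.86 for Cebpd, 1.78 for Mt2, 1.46 for Errfi1, 1.31 for Mt1, 1.19 for Bcl6 and 1.09 for Nfkbia. Their limma adjusted p ran from 4.44e-07 for Klf9 to 0.0390 for Mt2. Sgk1 (-0.18) and Dusp1 (0.33) were not called. Mt1 and Mt2, the metallothionein genes, lost their call in 9 and 11 of 20 alternatives, and Cebpd without the male libraries numbered 2. In that fit 10 of the 15 were called. As a description, the difference of Hspb1, 2.82, lies between those of Hif3a and Zbtb16.

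The 5 loci whose profile over the 12 libraries was most like that of Hspb1 were Tsc22d3, Thrsp, Lcn2, Ptk2b and Zbtb16. Likeness was the root mean square distance between profiles of log2(FPKM + 1), each centred on its own mean, over 13534 named loci. These distances were 0.45, 0.58, 0.59, 0.59 and 0.62, against a median of 1.58 over all loci and a root mean square of 1.55 for Hspb1 itself. The ranking follows the treatment difference, and the 12 libraries share their sex and number structure, so it is a description.

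Tsc22d3, an anti-inflammatory target of the glucocorticoid receptor, shared with Hspb1 the order of the dexamethasone libraries. It had 104, 45.2 and 39.2 FPKM in male dexamethasone libraries, against 10.9, 10.9 and 8.94 FPKM in male vehicle libraries. In females it had 108, 85.1 and 66.0 FPKM with dexamethasone, against 14.1, 16.0 and 12.6 FPKM with vehicle. Thrsp, a gene of fat synthesis, had 8.87 to 47.9 FPKM with dexamethasone and 1.95 to 6.59 FPKM with vehicle. Ptk2b, which encodes a calcium-sensitive tyrosine kinase, had 5.58 to 14.2 FPKM with dexamethasone and 0.307 to 1.84 FPKM with vehicle. The treatments did not overlap for either gene, a separation with dexamethasone higher that was found at 1.41% of tested loci. Nothing is read from it, since both genes were picked for likeness to Hspb1. Lcn2, which encodes a secreted lipid carrier, had 7.15, 2.06 and 0.539 FPKM in male and 4.47, 2.14 and 1.59 FPKM in female dexamethasone libraries, and was listed at 0 in all 6 vehicle libraries.

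For Cryab the nearest loci were Aamdc, Grina, Mlc1, Cpq and Glrx, at distances of 0.19 to 0.23, against a median of 0.53 and its own 0.49. Mlc1, an astrocytic membrane protein gene, had 136, 97.8 and 60.1 FPKM in male and 150, 110 and 99.6 FPKM in female dexamethasone libraries. With vehicle it had 110, 89.8 and 59.4 FPKM in male and 134, 119 and 84.2 FPKM in female libraries, so library 1 was highest and library 3 lowest in each of the 4 groups. Cryab had its lowest value in library 3 of each group as well.

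**Figure D4:**
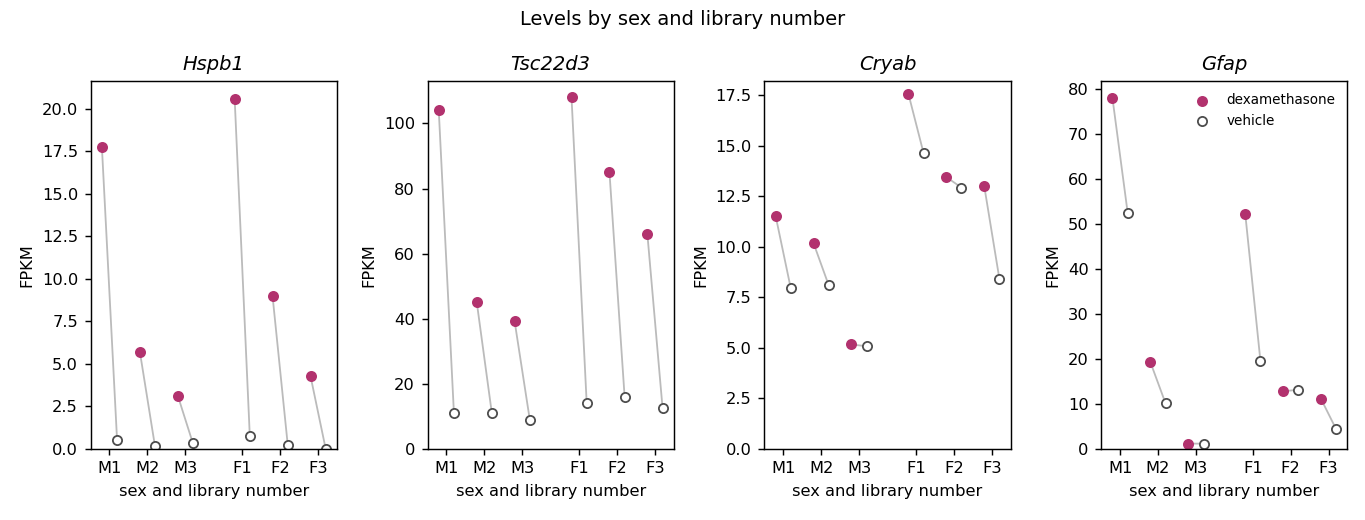
FPKM of Hspb1, Tsc22d3, Cryab and Gfap in dexamethasone and vehicle libraries (vertical axes from 0), with lines joining libraries of the same sex (M, male; F, female) and number. In each sex library 1 has the highest dexamethasone value of all 4 genes, and Gfap ranges from 1.15 to 78.0 FPKM within male dexamethasone libraries.

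The astrocytic marker Gfap, chosen here after its values were seen, followed the same order among dexamethasone libraries as Hspb1. Of the 10 astrocytic markers, 4 did so in both sexes, namely Gfap, Aqp4, S100b and Aldoc. Aldh1l1 did not, with 66.1, 8.22 and 13.5 FPKM in male and 55.0, 27.7 and 30.3 FPKM in female dexamethasone libraries, and neither did Slc1a2, Slc1a3, Gja1, Glul or Sox9. Gfap had 78.0, 19.3 and 1.15 FPKM in male dexamethasone libraries, against 52.5, 10.1 and 1.15 FPKM in male vehicle libraries. In females it had 52.3, 12.8 and 11.1 FPKM with dexamethasone, against 19.6, 13.1 and 4.31 FPKM with vehicle. Gfap thus varied between libraries under either treatment, whereas Hspb1 was under 1 FPKM in every vehicle library, also in male vehicle library 1, where Gfap was at 52.5 FPKM. The part of astrocytic cells in the spread of Hspb1 among dexamethasone libraries was not tested.

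Of the 10 astrocytic markers, all tested, limma called 1 higher and none lower in the averaged effect. This was Glul, which encodes glutamine synthetase, by 1.16 (SE 0.22, limma adjusted p = 0.0291), and the call was lost in 10 of 20 alternatives. The median difference of the list was -0.003, with 5 markers higher and 5 lower. Its summed level, which includes Glul, was 976 to 1721 FPKM with dexamethasone and 741 to 1308 FPKM with vehicle. Neural stem cell markers were all above 1 FPKM, with sums of 5556 to 7214 FPKM with dexamethasone and 5828 to 7098 FPKM with vehicle. Of these 10 markers 2 were higher and 8 lower in the averaged effect, with a median of -0.13. By limma, Sox2 and Msi1 had an unadjusted p under 0.05, as 13.6% of tested loci did. Msi1, an RNA-binding protein gene, fell by 0.64 (limma adjusted p = 0.0151), where 0.388% of loci were called lower. The call of Msi1 was lost without the male libraries numbered 2.

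Markers of other cells that such cultures could hold were mostly low. Of 12 mural, smooth muscle and fibroblast markers 3 reached 1 FPKM, namely Acta2, Tagln and Cspg4. The list summed to 48.0 to 70.5 FPKM with dexamethasone and 34.3 to 66.1 FPKM with vehicle, with Lum at 0 throughout and Pdgfrb at most 0.0346 FPKM. Cspg4, counted there and among 9 tested oligodendrocyte lineage markers, rose by 0.76 (limma adjusted p = 0.0114), the one call in either list. The oligodendrocyte list summed to 379 to 532 FPKM with dexamethasone and 390 to 571 FPKM with vehicle. Of 10 endothelial markers 3 reached 1 FPKM, Egfl7 and Flt1 among them, with differences of 0.10 and -0.13. The list summed to 17.7 to 27.0 FPKM with dexamethasone and 17.7 to 23.1 FPKM with vehicle, and Cldn5 and Cdh5 were at most 0.0406 FPKM. The microglial marker C1qa was listed at 0 in all 12 libraries. Of 10 neuronal markers 4 reached 1 FPKM, with Slc17a6 listed at 0 and sums, mostly of Map2, of 252 to 322 FPKM with dexamethasone and 229 to 352 FPKM with vehicle. Of 6 ependymal markers 3 did so, with Tmem212 listed at 0 and sums of 7.77 to 10.2 FPKM with dexamethasone and 6.66 to 12.2 FPKM with vehicle. Limma called none of the tested endothelial, neuronal or ependymal markers. None of them had an unadjusted p under 0.05 in the averaged effect, as 13.6% of tested loci did.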

How the data were processed

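RNA of 12 neurosphere libraries was made into stranded total RNA libraries, per the labels. The authors deposited 1 table of FPKM with 1 column per library, made on GRCm38 with Cuffdiff 2.2.1, Cufflinks 2.2.1 and TopHat2 2.0.9, per the submitters' processing notes. Annotation release, use of strand in counting and library scaling are not stated in the sources used here. FPKM carry no counts, so the depth is unknown and no counting interval is given.

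Each of the 4 groups had its own mean in a limma 3.58.1 fit (R 4.3.3, eBayes with trend) to log2(FPKM + 1) of loci averaging 1 FPKM or more, with contrasts for the averaged, male and female effects of dexamethasone, the interaction and the sex difference. Tests were two-sided, with Benjamini-Hochberg adjustment over all 14931 loci, and the code was tested on simulated data. No pair of libraries had identical values. Members, lists and motifs were chosen with earlier results of these data known. Named were all members, every called gene of a list, its 2 genes of highest mean FPKM, relatives of members, and the 5 loci nearest in profile to Hspb1 and to Cryab. The 2 genes of highest mean FPKM were not named for every list of cell markers. Genes named for an unadjusted p were chosen after their values were seen. The level of the microglial list as a whole is not reported here. Coordinates are from GENCODE M21 and promoters from RefSeq (GRCm38.p6). Alternatives covered pseudocounts of 0.1 and 0.5, no minimum, a minimum of 5 FPKM, quantile and median ratio scaling, the replicate number as a block, and each library left out. Leaving out both male libraries numbered 2 was added after the data were seen.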

Additional observations from a re-analysis of the deposited data

How the results depend on the processing

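Against 229 loci called in the averaged effect (47 in males, 72 in females), the fit with the replicate number as a block called 804, 420 higher and 384 lower (148 in males, 187 in females), and it called 8 loci in the interaction against 5. Without both male libraries numbered 2 there were 104 calls in the averaged effect, 14 in males and 9 in the interaction. Leaving out 1 library gave 146 (without female dexamethasone library 1) to 215 calls in the averaged effect, 28 (without male vehicle library 2) to 49 in males, 31 (without female dexamethasone library 1) to 74 in females, 4 to 14 (without female vehicle library 1) in the interaction, and 15 to 28 (without female vehicle library 1), against 16, in the sex difference. The labels do not say what a number shares. Deviations of same-numbered libraries from their group means correlated at 0.0819 to 0.167 across loci, and every library correlated best with its own number, a hint from the data. Among the listed genes, Dnajb4, Dusp1 and Aldoc were called higher and Nes, Sox2 and Sox9 lower with the block and not without it.

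The averaged difference of Hspb1, Hspb8, Cryab and Hsf1 kept its sign in all alternatives run, and that of Hspb1 moved to 4.54 with a pseudocount of 0.1. For Hspb6 it ran from -0.22 to 0.065 over single libraries left out and was 0.017 without both male libraries numbered 2. Over single libraries left out, the interaction ran from -0.11 to 1.02 for Hspb1, -0.42 to 0.16 for Hspb6, -0.53 to 0.31 for Hspb8 and -0.29 to 0.22 for Cryab. The sex difference ran from -0.092 to 0.48 for Hspb1, -0.13 to 0.16 for Hspb6 and -0.11 to 0.0040 for Hsf1. It was 0.0086 and 0.0027 for Hspb6 with pseudocounts of 0.1 and 0.5, and 0.0079 for Hspb8 without both male libraries numbered 2. The cause of these shifts was not tested. No interaction or sex difference of the tested members was called in any alternative.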
